A study of Mus musculus with 12 samples.

Results

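The 6 arrays described here carry muscle RNA of wild-type (WT) mice, the controls of a study in which the orphan nuclear receptor Nur77 (gene Nr4a1) was overexpressed in mouse skeletal muscle. They were chosen by their titles (Gastr WT1, WT2 and WT3) and make up 6 of the 12 arrays of the series. The other 6 are of transgenic (TG) mice overexpressing Nur77, also fasted and pooled, and enter 1 check of the chips. The 6 WT mice had been fasted overnight, and RNA of 2 mice was combined into each of 3 pools, WT1, WT2 and WT3. Cy3-labelled RNA of each pool was put on 1 Illumina Mouse WG-6 array of each of 2 chips, so that by the study's design the arrays of a pool are technical repeats of 1 RNA. The labels give the tissue as skeletal muscle, and gastrocnemius is read from the titles. The chip of an array is likewise read from the repeat number in its title. Strain, age and sex are not given in the sources used here, and no fed mice were measured, so the levels below describe the fasted state without a fed reference.

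The gastrocnemius is a calf muscle that in mice consists mostly of fast-twitch fibres, with a deeper portion richer in oxidative fibres. Fast fibres build their myofibrils, calcium release units and glycolytic pathway from isoforms that differ from those of slow fibres, heart and non-muscle cells. In fasting, muscle is known to spare glucose by inhibiting pyruvate dehydrogenase, to burn fatty acids and to release amino acids through the ubiquitin-proteasome system.

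The value of a gene is the signal of its brightest detected probe, a background-subtracted fluorescence intensity, averaged over the 2 arrays of a pool and given as mean ± SD over the 3 pools (n = 3). A probe was called detected where its detection p was under 0.05 on all 6 arrays. Of the 19057 genes named by a probe, 8760 were detected, 3489 were detected on some arrays and 6808 on none. A probe's brightness depends on its sequence as well as on the transcript, so a rank below is a rank of signal. Probes of the same gene show the size of this: among 3001 genes with at least 2 detected probes, the brightest exceeded the dimmest by a median of 3.62-fold, with an upper decile of 32.5-fold. A probe that stays dark is no proof of a silent gene. Sdha, a subunit of succinate dehydrogenase, Ndufs1, a core subunit of complex I, and Rps20, a ribosomal protein, were not detected on any array, although other subunits of these complexes gave signals above 10000.

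The arrays were alike, with correlations of log2 signal between 0.986 and 0.995, but the arrays of a pool were not closer to each other than to other pools. For 0 of 6 arrays was the nearest array the other array of its pool, and for all 6 it lay on the same chip. The root mean square log2 difference was 0.224 to 0.322 between arrays of a pool and 0.204 to 0.321 between arrays of different pools on 1 chip. The chip 2 array of WT1 lay farthest from the rest, with a median difference of 0.321 against 0.221 to 0.235 for the other arrays, and 19020 detected probes against 17638 to 18387. The labels thus call technical repeats what the signals do not set apart as such, and the main values that rest on that array are also given without it. The Y-linked gene Eif2s3y was detected on all arrays at 1484 to 1921, and Xist, which is made by the inactive X chromosome, was detected on 1.

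Genes of contraction, oxidative phosphorylation, glycolysis and protein synthesis gave the highest signals. The brightest 30 genes lay within 1.17-fold of each other, from 46979.9 ± 2444 for Hspb6, a small heat shock protein of muscle, to 39988 ± 2431 for Vdac1, a channel of the outer mitochondrial membrane. Their order is therefore not resolved: 29 of the 30 were lowest on the chip 1 array of WT1, whose brightest probe reached 40194 against 49315 to 52136 on the other arrays. The spread of these 30 genes over pools, the SD as a percentage of the mean (CV), was 3.08% to 9.22%, and 5.63% to 13.6% with WT1 taken from chip 1 alone, where it was more than 1.5 times as large for 21 of the 30. A further limit is that 9 of the 30 brightest probes carried no gene name here.

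Of the brightest 30 genes, 9 belong to the myofibril or to calcium handling. The thick filament gave the regulatory light chain Mylpf at 45672 ± 2248 and the essential light chain Myl1 at 44704 ± 2315. Thin-filament genes followed with the tropomyosin Tpm2 at 43807 ± 2432 and the fast troponin subunits Tnni2 at 42956 ± 1473, Tnnt3 at 42748 ± 2322 and Tnnc2 at 40231 ± 2631, which inhibit, anchor and sense calcium respectively. The Z-disc was represented by Actn3, the actinin of fast fibres, at 45866 ± 3136 and by the titin cap Tcap at 45444 ± 2960.2, and the sarcoplasmic reticulum by the fast calcium pump Atp2a1 at 44902 ± 2960.1.

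The other bright genes were those of energy supply and translation. Glycolysis was led by enolase Eno3 at 46152 ± 3081, aldolase Aldoa at 45988 ± 2872 and triosephosphate isomerase Tpi1 at 40040.5 ± 3120.3, and glycogen use by the phosphoglucomutase Pgm1 at 41099.6 ± 3195. ATP synthase and respiratory chain subunits were Atp5g3 (46726 ± 2299), Atp5b (43747 ± 4032), Atp5j2 (43175 ± 3272), Cox6a2 (45117 ± 2437), Uqcr10 (41746 ± 2033), Ndufa13 (40543 ± 1968) and the mitochondrially encoded cytochrome b, CYTB (45242 ± 2807). High-energy phosphate and oxygen handling were represented by creatine kinase Ckm at 43714 ± 2258, the adenylosuccinate synthase Adssl1 of the purine nucleotide cycle at 42475 ± 3045 and myoglobin Mb at 41049 ± 1503. The ferritin heavy chain Fth1, which stores iron, gave 46514 ± 2177. Ribosomal proteins were Rplp1 (45845 ± 2012), Rpl41 (44247 ± 1536), Rps29 (40676 ± 1252) and Rpl3l (40264 ± 1846), the last a muscle form of Rpl3.

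Among the brightest 100 genes, 65 fell into these classes, which hold 2.43% of the detected genes. Respiratory chain and ATP synthase genes counted 24 of the 100 against 0.811% of all detected genes, and contractile, Z-disc and M-band genes 15 against 0.685%. Ribosomal proteins also counted 15 against 0.685%, glycolytic genes 7 against 0.114%, and genes of excitation-contraction coupling 4 against 0.137%. The 10 detected glycolytic genes had a median signal of 35097, compared with 317 over all detected genes. The signal was concentrated: the brightest 100 probes held 16.4% to 19.4% of the summed signal of an array. A signal of 10000 was exceeded by 300 genes, while 2369 of the detected genes lay under 100.

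**Figure D1:**
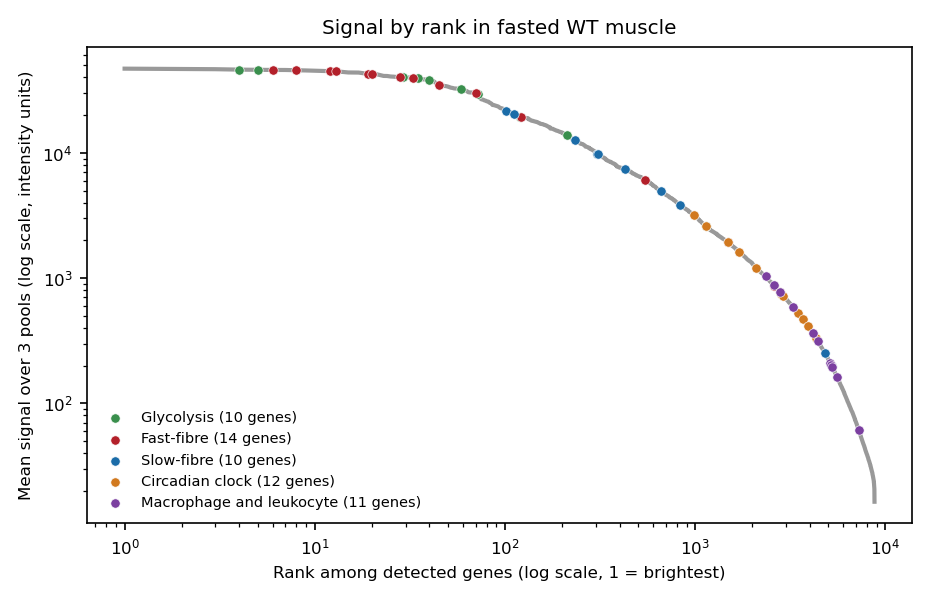
Mean signal over the 3 WT pools (vertical, log scale, intensity units) of the 8760 detected genes against their rank (horizontal, log scale), drawn as a grey line, with the detected members of 5 gene lists as coloured points. Most glycolytic and fast-fibre genes sit on the flat top of the curve, with Slc2a4, Tpm1 and Casq1 lowest at 2595 to 871, slow-fibre genes run from 21586 down to 198, clock genes at 3165 or below and macrophage genes at 1029.7 or below.

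Isoform families were read against the spread between probes of 1 gene. Of 240 members of 55 families with a probe, 181 were detected, 23 in part and 36 not. The brightest member exceeded the next detected one by more than 32.5-fold, the upper decile for probes of 1 gene, in 9 of the 41 families with at least 2 detected members, and by more than the median of 3.62-fold in 24. A difference under 32.5-fold is called within the probe spread below, and gives no order of the isoforms.

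Myosin heavy chains, the motor proteins of the thick filament, were led by Myh4, the chain of the fastest (type 2B) fibres. Myh4 gave 33092 in WT1, 35084 in WT2 and 36196 in WT3, and Myh1, the chain of type 2X fibres, gave 6097 in WT1, 6363 in WT2 and 5877 in WT3, a 5.69-fold difference that lies within the probe spread. Myh7, the slow chain, was detected on 5 of 6 arrays, at 15.4 to 56.5. The perinatal chain Myh8 (90.8 ± 21.5) and the heart chain Myh6 (169 ± 34.2) were dim, as were the smooth muscle chain Myh11 (191 ± 5.63) and the non-muscle chain Myh9 (725 ± 113). Each of these 4 lay more than 32.5-fold under Myh4. Myh2, the chain of type 2A fibres, was not named by a probe here.

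The upstream sequence of Myh4 is shown as the promoter of the brightest detected myosin heavy chain. It is the 250 bases before the annotated start in RefSeq (GRCm38.p6, chr11:67237562-67237811, plus strand), 5′ to 3′, with matches to the letters TATAAA, searched on both strands, in capitals.
Myh4: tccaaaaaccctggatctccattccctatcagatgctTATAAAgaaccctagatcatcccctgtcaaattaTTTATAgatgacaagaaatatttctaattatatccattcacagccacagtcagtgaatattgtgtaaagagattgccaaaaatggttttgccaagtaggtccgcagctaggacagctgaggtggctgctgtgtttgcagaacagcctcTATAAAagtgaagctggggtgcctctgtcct
The 3 matches begin 213, 179 and 31 bases before the start. Of 32851 RefSeq promoters of this length, 12.4% hold at least 1 match and 0.335% hold 3 or more. Among the 22 of the brightest 30 genes with a promoter in the table, 4 hold a match in at least 1 entry, against 14.3% of all genes. A match is a description of the letters and not of a bound site.

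Light chains and troponins also had their brightest probes in the fast isoforms, and tropomyosins in Tpm2. The slow and cardiac light chains Myl3 (21586 ± 1407) and Myl2 (20358 ± 2781) stood within the probe spread of the fast ones. The slow troponin subunits Tnnc1 (12546 ± 2533) and Tnnt1 (9799.8 ± 1809.7) stood within 4.38-fold of Tnni2, whereas Tnni1, the slow inhibitory subunit, gave 253 ± 75.05, a 169.8-fold difference. Tpm3, the slow tropomyosin, gave 9866 ± 1150.0, and Tpm1, of fast fibres, gave 871 ± 125 from its brightest probe. Tpm1 therefore lies more than 32.5-fold under Tpm2, although both are known thin-filament proteins of muscle.

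Actins and Z-disc proteins held both muscle and non-muscle members. The skeletal actin Acta1 gave 39988 ± 3993, the cardiac actin Actc1 16690.2 ± 2427, the cytoplasmic actin Actb 32366 ± 2658 and the vascular actin Acta2 3331 ± 250.05. Acta1 and Actb differed by 1.24-fold, which cannot be read as similar transcript levels. The next brightest Actb probe gave 2797 to 5404 over the 6 arrays, and the remaining Actb probes gave 168 to 415. Among actinins, Actn2, found at all Z-discs, gave 26198 ± 1745, while the non-muscle forms Actn1 (295 ± 39.3) and Actn4 (190.4 ± 21.8) were over 100-fold dimmer than Actn3. The fast myosin binding protein Mybpc2 gave 30159.5 ± 1759, the slow form Mybpc1 5136 ± 108, and the heart form Mybpc3 was not detected. The giant protein titin (Ttn) gave 39077 ± 1909.7, against 87.9 ± 10.8 for nebulin (Neb).

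In calcium handling, the fast pump Atp2a1 was followed by the slow and cardiac pump Atp2a2 at 7387 ± 1114 and by Atp2a3 at 346 ± 60.5. The release channel Ryr1 gave 26476 ± 999, and its paralogs Ryr2 and Ryr3 were not detected. Parvalbumin (Pvalb), the calcium buffer of fast fibres, gave 39696 ± 3531. The calcium store proteins Casq1 (1932 ± 443) and Casq2 (198 ± 12.4) differed by 9.77-fold, within the probe spread. Of the 13 excitation-contraction coupling genes with a probe, 12 were detected, from 1932 for Casq1 to 44902 for Atp2a1, and triadin (Trdn) was not detected.

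**Figure D2:**
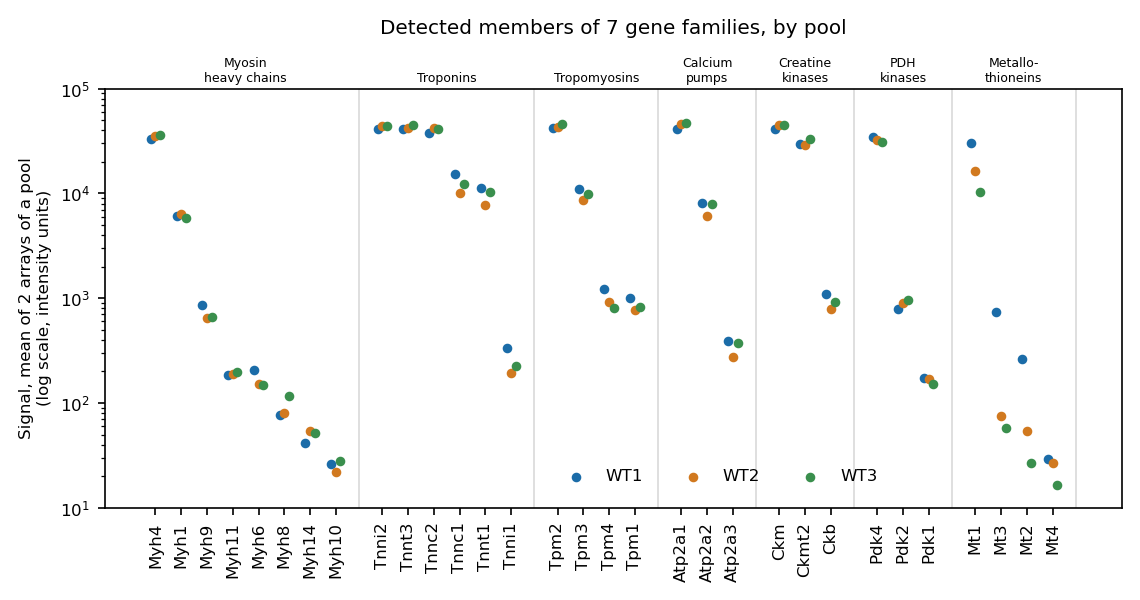
Signal of the detected members of 7 gene families (vertical, log scale, intensity units), 1 point per pool and gene, each the mean of 2 arrays (blue WT1, orange WT2, green WT3; PDH, pyruvate dehydrogenase). Pools lie close together beside the distance between the brightest and dimmest members, except the metallothioneins Mt1, Mt2 and Mt3, where WT1 is highest.

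In phosphofructokinase, phosphoglycerate mutase, enolase and lactate dehydrogenase the muscle isozyme had the brightest probe. Phosphofructokinase Pfkm, the enzyme of the committed step, gave 39495 ± 2135 against 197 ± 11.6 for the liver form Pfkl, a 201-fold difference. Phosphoglycerate mutase Pgam2 gave 19375 ± 1395 against 61.00 ± 12.5 for Pgam1, and enolase Eno3 46152 ± 3081 against 30.03 ± 11.4 for the neuronal Eno2. Lactate dehydrogenase Ldha gave 29238 ± 2432, while Ldhb, the heart form, was detected on 5 of 6 arrays at 9.90 to 25.9. The first 3 pairs lie beyond the 32.5-fold level, and Ldhb lay near background.

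Genes of glucose entry and glycogen use had their brightest probes in the muscle forms. The insulin-responsive transporter Slc2a4 (GLUT4) gave 2595 ± 120.2 and Slc2a1 (GLUT1) 466 ± 112, a difference within the probe spread. Glycogen phosphorylase Pygm, which mobilises muscle glycogen, gave 13279 ± 804 against 127 ± 11.5 for the brain form Pygb, a 105-fold difference. Its activating kinase had the muscle catalytic subunit Phkg1 at 6659.6 ± 849 and the liver one, Phkg2, at 217 ± 6.88. This 30.7-fold difference lies within the probe spread. The glycogen synthase of muscle, Gys1, gave 119 ± 10.8 and that of liver, Gys2, was not detected. Fructose bisphosphatase was represented by the muscle form Fbp2 at 3167 ± 467.

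The buffers of high-energy phosphate were muscle forms as well. Cytosolic Ckm (43714 ± 2258) and mitochondrial Ckmt2 (30502 ± 2041) stood above brain-type Ckb (933 ± 159), with Ckb 46.9-fold under Ckm. AMP deaminase Ampd1, which turns AMP into IMP, gave 32940.3 ± 3232 and Ampd3 455 ± 175, a 72.3-fold difference. Adenylate kinase Ak1 gave 14583 ± 779.6.

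Pyruvate dehydrogenase kinases block the entry of pyruvate into the mitochondrial oxidation of glucose, and Pdk4 is the isoform known to rise in fasting muscle. Pdk4 gave 35526 and 33521 in WT1, 33010.0 and 31266 in WT2, and 37542 and 24441 in WT3 on chips 1 and 2. Pdk2 gave 785 in WT1, 909 in WT2 and 971 in WT3, and Pdk1 174 in WT1, 168 in WT2 and 153 in WT3, so that Pdk4 stood 36.6-fold and 197-fold above them, beyond the 32.5-fold level for the means in both cases, although Pdk4 over Pdk2 was 31.9-fold in WT3. Pdk3 was detected on 2 arrays. The opposing phosphatases Pdp2 (1271 ± 284) and Pdp1 (421 ± 66.1) were detected.

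Cytochrome oxidase had its brightest probe in the heart and muscle subunit Cox6a2. Cox6a2 (45117 ± 2437), Cox7a1 (38530.2 ± 3496) and Cox8b (32026 ± 1489.6) stood beside the ubiquitous Cox4i1 (31485 ± 1668), Cox6a1 (3436 ± 243) and Cox7a2 (748 ± 31.5). Cox6a2 exceeded Cox6a1 by 13.1-fold, within the probe spread. Among adenine nucleotide carriers, which exchange ATP for ADP, the widely expressed Slc25a5 (3541 ± 164) gave 16.8-fold the signal of the muscle form Slc25a4 (211 ± 22.1), also within the probe spread. Of 32 oxidative phosphorylation genes with a probe, 30 were detected, with a median of 20155. Of 18 genes of the TCA cycle list, 17 were detected at a median of 6898, led by Suclg1 at 23638 ± 1397, a subunit of succinyl-CoA ligase, and Idh3g at 21410.1 ± 654, a subunit of isocitrate dehydrogenase.

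In fatty acid binding and the carnitine step of fatty acid entry, only the muscle isoforms were detected on all arrays. Fabp3, the fatty acid carrier of heart and muscle, gave 25691 ± 873, and the adipocyte form Fabp4 was not detected. Cpt1b, which admits long-chain fatty acids to mitochondria, gave 8169.9 ± 319, and the liver form Cpt1a was not detected. The beta-oxidation dehydrogenase Acadm (16071 ± 1211) and the electron carriers Etfa (17627 ± 854) and Etfb (12019 ± 498) followed, and 18 of 19 fatty acid oxidation genes with a probe were detected on all arrays. Cd36, the fatty acid translocase, was detected on 3 arrays. Among acyl-CoA synthetases Acsl6 had the brightest probe at 1473 ± 103, which was 4.11-fold above Acsl5 and within the probe spread. Of 18 lipid synthesis genes 14 were detected, at a median of 356, with Dgat2, the final enzyme of triglyceride synthesis, highest at 3283 ± 366.

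Transcriptional regulators gave lower signals. Among myogenic factors Myf6 (MRF4), the factor of mature fibres, gave 5695 ± 614 and myogenin (Myog) 59.4 ± 14.7, a 95.96-fold difference, while Myod1 was detected on 5 arrays and Myf5 on none. Mef2c gave 5961 ± 480.1. The oxidative regulators were Esrra (1907 ± 11.8), Ppard (1265 ± 69.9), Ppargc1b (552 ± 67.96) and Ppargc1a (188 ± 32.5), and Ppara was not detected. Nr4a1, the gene overexpressed in the transgenic mice of the study, was not detected in WT muscle, with signals of -11.3 to 3.00, and Nr4a2 and Nr4a3 were detected on 4 and 3 arrays.

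Kinase, channel and receptor subunits had less distinct leaders. The AMPK subunits of muscle, catalytic Prkaa2 (841 ± 69.3), scaffold Prkab2 (834 ± 59.3) and regulatory Prkag3 (586 ± 121), lay within 1.44-fold. Another regulatory subunit, Prkag1, was brighter than Prkag3, at 1.06-fold under Prkaa2. All these differences lie within the probe spread. Acetylcholine receptor subunits of the adult endplate were Chrna1 (949 ± 38.4), Chrnb1 (2649 ± 282) and Chrne (282 ± 42.9), whereas the fetal subunit Chrng was detected on 4 arrays at 11.2 to 78.4. Sodium pump beta subunits Atp1b1 (2335 ± 193), Atp1b2 (2269 ± 179) and Atp1b3 (2182 ± 196) were detected. The voltage sensor accessory subunit Cacng1 gave 6580.0 ± 194.

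Some stress proteins and growth factor binding proteins were bright. Beside Hspb6, the small heat shock proteins Hspb8 (17941 ± 904), Cryab (6774 ± 718) and Hspb1 (4546 ± 583) were bright, as were the constitutive chaperone Hspa8 (13966 ± 159.9) and its mitochondrial relative Hspa9 (14123 ± 789). Other members were dim: the inducible Hspa1a gave 127 ± 44.1, Hsp90aa1 267 ± 100 and Hspa5 25.3 ± 5.24. Each of these lay more than 32.5-fold under Hspb6. The superoxide dismutases of cytosol and mitochondria, Sod1 (11764 ± 835) and Sod2 (10236 ± 177), stood over 100-fold above the secreted Sod3 (35.2 ± 2.90). In the IGF axis the binding proteins Igfbp5 (7268 ± 863) and Igfbp7 (6691 ± 505) were brightest, the ligands Igf2 and Igf1 gave 2217 ± 176 and 154 ± 36.9, and the receptor Igf1r 364 ± 17.7.

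Fast-fibre and slow-fibre markers were both present. All 14 fast-fibre genes with a probe were detected, with a median signal of 39963 and a median CV over pools of 5.63%. Of 11 slow-fibre genes 10 were detected, with a median signal of 8593 and a median CV of 14.4%, compared with 8.67% over all detected genes. The 2 lists differ in signal, and the brightest 200 genes had a median CV of 4.82%. The CVs are therefore not a comparison of fibre types at equal signal. None of the slow genes passed a test of pool or chip after adjustment. Of the 11, 7 were highest on the chip 1 array of WT1, where 17% of all tested probes were highest, and 8 were lowest on the chip 1 array of WT2 (15% of probes). The gene list was chosen with earlier results known, so these counts are not an independent test. Tnnc1 gave 18595 and 11839 in WT1, 8599.6 and 11755 in WT2, and 12211 and 12274 in WT3 on chips 1 and 2, and Tnnt1 gave 14106 and 8484 in WT1, 6502 and 9074 in WT2, and 10814 and 9819 in WT3. For both genes the arrays of WT1 lay farther apart than the highest and lowest pool.

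Markers of other cells showed what else the pooled muscle held. In bulk RNA, fewer cells of a type and less RNA per cell cannot be told apart. Haemoglobin was bright: Hba-a1 gave 23566 in WT1, 28769 in WT2 and 19918 in WT3 and Hbb-bs 20867 in WT1, 26692 in WT2 and 20513 in WT3, highest in WT2 for both, while Alas2, the haem synthesis enzyme of red cell precursors, gave 182 ± 33.1. Endothelial genes were detected in 13 of 14 cases, led by Egfl7 (5280.2 ± 346), Ly6c1 (3321 ± 245) and Flt1 (2992 ± 156), a VEGF receptor. Pericyte and smooth muscle genes were detected in 10 of 12 cases, including the potassium channel regulator Abcc9 at 953 ± 15.98.

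Fibroblasts, fat, satellite cells and nerve had detected markers as well. The matrix proteoglycan Dcn gave 19176 ± 851 and the collagen Col6a1 2111 ± 189, and 12 of 13 fibroblast and matrix genes with a probe were detected. Adipocyte genes gave adiponectin (Adipoq) at 447 ± 71.6, and Plin1 was detected on 1 array. The list also holds Car3, the carbonic anhydrase of muscle and fat, at 14979.6 ± 2666. Of 10 satellite cell genes with a probe 6 were detected, at a median of 86.7, with the cadherin Cdh15 highest at 461 ± 29.8, and Pax7, Pax3, Myf5 and Calcr were not. Of 8 Schwann and nerve genes with a probe 5 were detected, 1 in part and 2 not, with a median of 68.8 for the detected ones. Pmp22 (1422 ± 268) and Mbp (1175 ± 147) were the brightest of them. Of 6 liver genes 0 were detected on all arrays. Of 9 heart genes with a probe, Actc1 (16690.2 ± 2427) and Myh6 (169 ± 34.2) were detected, Gata4 was detected on 1 array, and Nppa, Nppb, Tnni3, Mybpc3, Ryr2 and Nkx2-5 on none.

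Genes known to respond to fasting and glucocorticoids included some of the brightest regulators of the muscle. After Pdk4 (32551 ± 1802) came Txnip (24084 ± 1662), a thioredoxin inhibitor that restrains glucose uptake, the metallothionein Mt1 (19105 ± 10444), and the muscle ubiquitin ligases Fbxo32 (atrogin-1, 18259.8 ± 3664) and Trim63 (MuRF1, 14264 ± 3962). Of the 28 genes of this list, 25 were detected, with a median signal of 2737 and a median CV of 18.6%. No gene of the list passed the limma test of pool after adjustment. Of the 27 tested, 19 were highest in WT1, where 33.2% of all tested probes were highest, and 20 were lowest in WT3 (31.4% of probes). With WT1 taken from chip 1 alone, the first count was 19 as well, against 36.6% of probes. Earlier results of these data were known when the list was chosen, so these counts are not an independent test.

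Cdkn1a (p21), a cell cycle inhibitor known as a stress and FoxO target, had the smallest p of the list in the test of pool. It gave 7243 and 3103 in WT1, 4556 and 3418 in WT2, and 1928 and 1302 in WT3 on chips 1 and 2, so that both arrays of WT3 lay below all others, and the arrays of WT1 enclosed those of WT2. The difference between the highest and lowest pool was 1.48 on the log2 scale, with a limma adjusted p of 0.35. Ddit4 (REDD1), an inhibitor of mTORC1, gave 2276 and 3604 in WT1, 1739 and 5260.3 in WT2, and 961 and 404 in WT3, where chip 2 was above chip 1 in WT1 and WT2 and below it in WT3. Mt1 gave 24658 and 36604 in WT1, 18634 and 14193 in WT2, and 13755 and 6783 in WT3, with no overlap between the 3 pools and a range over pools of 1.65 (limma adjusted p = 0.92).

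**Figure D3:**
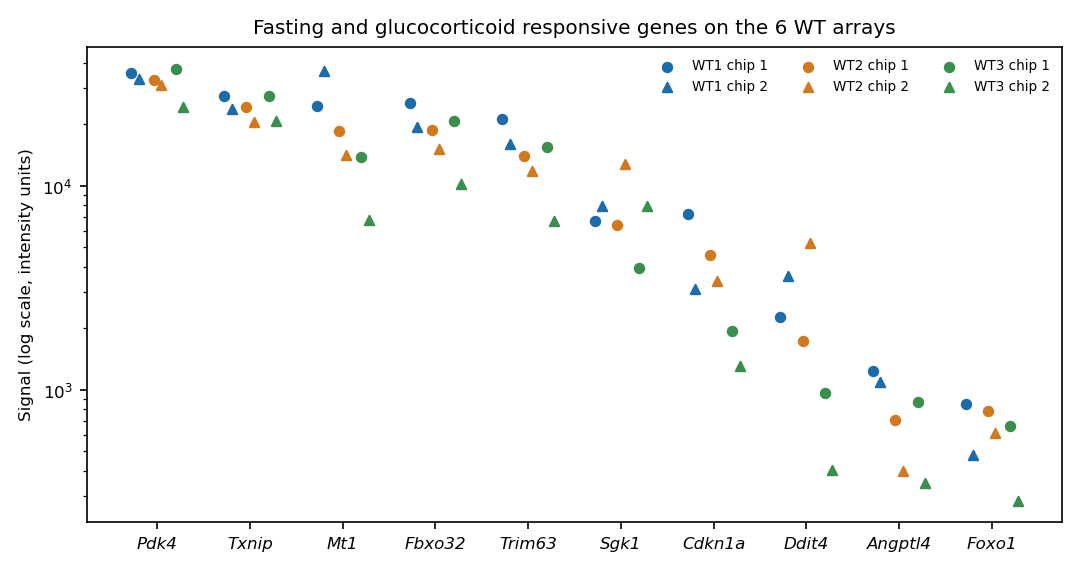
Signal (vertical, log scale, intensity units) of 10 fasting and glucocorticoid responsive genes on the 6 WT arrays, with colour for the pool and shape for the chip (circles chip 1, triangles chip 2). For Cdkn1a both WT3 arrays lie below the 4 others, and for Pdk4, Txnip, Fbxo32, Trim63, Cdkn1a, Angptl4 and Foxo1 the triangle lies below the circle in all 3 pools. The 10 genes are a selection. Of the 27 tested genes of the list, 9 were lower on chip 2 in all 3 pools (16.5% of all probes) and 3 higher (13.9%).

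Over all probes, no difference between the 3 pools passed the test. The limma F-test of pool, with the chip as a term, called 0 of 19937 probes (0%), 963 probes (4.83%) had an unadjusted p under 0.05, and the smallest adjusted p was 0.206, for Dbp and for a second probe of Cdkn1a. With WT1 taken from chip 1 alone, 4 probes passed: 2 of the 3 probes of Cdkn1a, Slc15a2, a peptide transporter, and 1 probe without a name. WT1 then rests on 1 array, where Slc15a2 gave 19.9, against 182 on the array left out. On chips 1 and 2 Slc15a2 gave 206.9 and 125.3 in WT2, and 417.7 and 155.4 in WT3. With all 6 arrays its limma adjusted p of pool was 0.93. The test compares these 3 pools and no condition, and its p-values measure only the spread between these arrays. The median SD over pool means was 0.0888 on the log2 scale and the median SD between arrays of a pool was 0.135, which divided by the square root of 2 gives 0.0956 for the mean of 2 arrays. The SD over pools was larger than this array share for 45.2% of probes. The array share includes the mean difference between the chips, which cancels between pool means. The percentage therefore cannot show whether pools vary more or less than repeat arrays. With the probes split by signal into 4 equal classes, the median SD over pools was 0.0823 in the dimmest, 0.0907 and 0.0991 in the middle and 0.0841 in the brightest class.

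Among the brightest 200 genes the CV over pools ranged from 0.638% to 54.7% with a median of 4.82%. The steadiest 5 were Rtraf, an RNA-binding factor (17150.5 in WT1, 16991 in WT2 and 16943 in WT3), Rbfox1, a splicing factor (17762 in WT1, 17602 in WT2 and 17540.0 in WT3), Rpl35 (23384 in WT1, 23408 in WT2 and 23772 in WT3), the complex I subunit Ndufa9 (17836 in WT1, 18245 in WT2 and 18107 in WT3) and the linker histone H1f2 (38596 in WT1, 37789 in WT2 and 38581 in WT3). Signals on single arrays spanned more, from 14658 to 21014 for Ndufa9, 16221 to 19304 for Rbfox1 and 34896 to 40681 for H1f2. With WT1 taken from chip 1 alone the CV was 1.44% for Rtraf, 5.51% for Rbfox1, 1.64% for Rpl35 and 8.58% for Ndufa9. With both arrays it was 0.638%, 0.650%, 0.923% and 1.15%. Rtraf and Rpl35 thus stayed below the median of 4.82% taken with both arrays, while Rbfox1 and Ndufa9 rose above it. For H1f2 the CV was 1.04% without that array and 1.20% with it. The 5 genes were picked by their CV with both arrays, which favours a rise when 1 is left out. The most variable 5 were Mt1, Retreg1, a receptor for autophagy of the endoplasmic reticulum, Gadd45g, a stress-response gene, Fbxo32 and Ppp1r3c, a glycogen-targeting phosphatase subunit. Retreg1 gave 26067 in WT1, 19927 in WT2 and 17409.9 in WT3, Gadd45g gave 19089.8 in WT1, 21245 in WT2 and 13997 in WT3 and Ppp1r3c gave 22452 in WT1, 24241 in WT2 and 16576 in WT3, so that WT3 was lowest for all 5. Of all tested probes, 31.4% were lowest in WT3. These 5 genes were picked by their spread over the same pools, and Mt1 and Fbxo32 were already counted among the fasting-responsive genes. The count is therefore not separate evidence of a difference between pools.

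Some genes of the circadian clock differed between the arrays of the same pool. The molecular clock is a feedback loop in which CLOCK and BMAL1 (gene Arntl) activate Per, Cry, Nr1d and Dbp genes through E-box sequences, and in mouse tissues Arntl runs opposite in phase to Dbp and Per. The limma test of chip within pools called 4 of 19937 probes (0.0201%), and 1593 (7.99%) had an unadjusted p under 0.05. Dbp, Bhlhe40 and Slc25a25 were higher on chip 2 (0.015% of probes were called higher) and Arntl was lower (0.00502%). Of 13 clock genes tested, 3 were among the 4, and 9 had an unadjusted p under 0.05. This list and those counted below were chosen with earlier results of these data known. Their counts against all probes are therefore descriptions and not independent tests. On chip 2, 7 of the 13 were higher in all 3 pools (13.9% of probes) and 2 lower (16.5% of probes), with a median difference of 0.40 against -0.01 over all probes. For 5 of the 13 the chip 2 arrays lay above all chip 1 arrays (6.36% of probes), and for 1 below them (7.44%).

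Dbp, a clock output transcription factor, gave 1060.4, 1345 and 2697 on chip 1 and 2705, 4353 and 6828 on chip 2 for WT1, WT2 and WT3. It was higher on chip 2 in every pool, by 1.42 ± 0.11 (SE) on the log2 scale (limma adjusted p = 0.0163), although the lowest chip 2 value was level with the highest of chip 1. Within each chip WT1 was lowest and WT3 highest. Bhlhe40 (DEC1), a repressor of CLOCK and BMAL1, gave 1095, 1661 and 2299.7 on chip 1 and 2539, 3476 and 4631 on chip 2, with a difference of 1.07 ± 0.10 (limma adjusted p = 0.0213) and the same order of pools. Arntl gave 1119, 558 and 541 on chip 1 and 504, 232 and 216 on chip 2 and was lower on chip 2 in every pool, by -1.09 ± 0.10 (limma adjusted p = 0.0213), with WT1 highest within each chip. The mitochondrial ATP-Mg carrier Slc25a25 gave 157, 302 and 148 on chip 1 and 546, 1885 and 601 on chip 2, with no overlap between the chips and a difference of 1.80 ± 0.17 (limma adjusted p = 0.0213).

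Other clock genes did not pass the test after adjustment. Ciart (CHRONO), a repressor of the loop, gave 37.5, 137 and 437 on chip 1 and 514, 956 and 731 on chip 2, and its difference of 1.80 ± 0.29 had a limma adjusted p of 0.26. Per2 gave 135, 197 and 258 on chip 1 and 304, 642 and 474 on chip 2 (limma adjusted p = 0.18), Per1 1288, 1286 and 1382 on chip 1 and 1973, 2332 and 1423 on chip 2 (limma adjusted p = 0.56) and Clock 1067, 873 and 641 on chip 1 and 719, 629 and 565 on chip 2 (limma adjusted p = 0.57). Probes of 1 gene were not always alike: a dimmer probe of Per1 gave 109.9, 66.4 and 64.1 on chip 1 and 77.9, 34.7 and 44.0 on chip 2, lower in every pool (limma adjusted p = 0.57), while the other 2 were higher in every pool. Usp2, a ubiquitin protease known as a clock output and chosen here after its values were seen, gave 4614, 5379 and 6896 on chip 1 and 7292, 10449 and 10075 on chip 2. The brightest probes of Cry2, Nr1d1, Tef and Rora did not differ in 1 direction over the pools, although a second probe of Tef was lower on chip 2 in every pool, with ratios of 0.853 to 0.859. Npas2, Cry1 and Hlf were not detected.

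The same test on the 6 arrays of the transgenic mice, added after the data were seen, called 0 of 20128 probes, with 1156 (5.74%) at an unadjusted p under 0.05. There the chip 2 minus chip 1 difference was 0.67 for Dbp, 0.59 for Bhlhe40, 0.41 for Slc25a25 and -0.42 for Arntl on the log2 scale, with limma adjusted p of 0.83 for Dbp, Bhlhe40 and Arntl and 0.84 for Slc25a25. Not every TG pool followed: on chip 2 Dbp was lower in TG3 (4527 on chip 1 and 3711 on chip 2), as was Bhlhe40 (3077 and 2770.1), and Slc25a25 was lower in TG1 (1052 and 686). The difference between the genotypes in this effect was not tested. By the study's design a chip effect would act on 1 RNA, and why these genes differed between arrays of a pool was not tested.

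**Figure D4:**
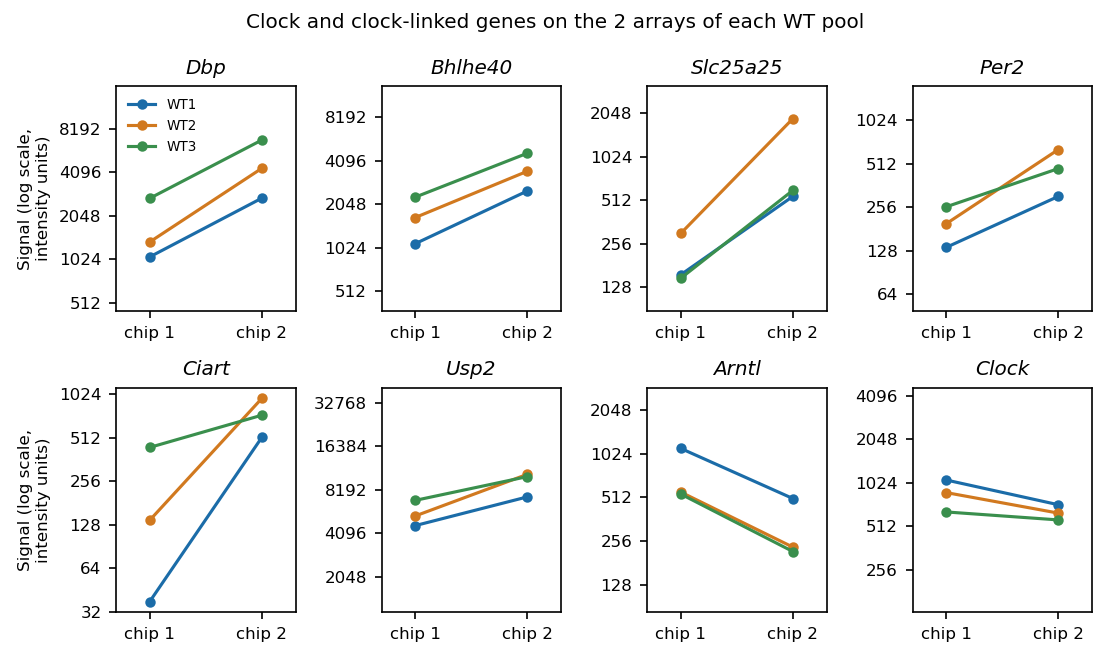
Signal (vertical, log scale with the same span in each panel, intensity units) of 8 clock and clock-linked genes on chip 1 and chip 2, with 1 line per WT pool. Dbp, Bhlhe40, Slc25a25, Per2, Ciart and Usp2 are higher on chip 2 in all 3 pools, and Arntl and Clock are lower.

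The brightest probes of Ciart, Per1 and Dbp were higher on chip 2 in every pool, and that of Arntl was lower. The upstream sequences of these genes are shown as examples. Each is the 250 bases before an annotated RefSeq start (GRCm38.p6), 5′ to 3′ on the gene's strand, with the E-box letters CACGTG, which read the same on both strands, in capitals. They are Ciart at chr3:95882229-95882478 (minus strand), Per1 at chr11:69098699-69098948, Dbp at chr7:45704997-45705246 and Arntl at chr7:113207215-113207464 (plus strand).
Ciart: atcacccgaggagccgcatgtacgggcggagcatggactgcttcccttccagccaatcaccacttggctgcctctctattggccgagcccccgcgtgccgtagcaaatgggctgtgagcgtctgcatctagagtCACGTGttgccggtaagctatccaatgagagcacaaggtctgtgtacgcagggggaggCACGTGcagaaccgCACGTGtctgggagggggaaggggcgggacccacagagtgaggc
Per1: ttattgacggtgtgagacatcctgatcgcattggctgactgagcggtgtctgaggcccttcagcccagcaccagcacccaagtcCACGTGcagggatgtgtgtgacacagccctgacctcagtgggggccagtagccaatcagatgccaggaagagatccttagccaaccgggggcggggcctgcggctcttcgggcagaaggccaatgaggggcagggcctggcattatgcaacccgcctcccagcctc
Dbp: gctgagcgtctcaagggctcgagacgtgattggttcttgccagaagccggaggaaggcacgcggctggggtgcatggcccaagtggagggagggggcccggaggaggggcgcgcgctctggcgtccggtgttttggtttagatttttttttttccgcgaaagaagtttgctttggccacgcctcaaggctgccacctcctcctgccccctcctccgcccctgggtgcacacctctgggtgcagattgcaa
Arntl: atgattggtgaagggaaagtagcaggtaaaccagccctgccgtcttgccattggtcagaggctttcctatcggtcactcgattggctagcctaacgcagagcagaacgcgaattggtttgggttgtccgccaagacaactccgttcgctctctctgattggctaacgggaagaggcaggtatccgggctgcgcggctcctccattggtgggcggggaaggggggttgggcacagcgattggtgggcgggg
Ciart holds 3 matches, which begin 116, 58 and 44 bases before the start, and the entry shown for Per1 holds 1 match, at 166 bases. The table holds 2 entries each for Per1 and Arntl, and the other entries, at chr11:69099902-69100151 and chr7:113207261-113207510, hold 0. Of 32851 promoters of this length 6.02% hold at least 1 match and 0.0609% hold 3 or more. The windows of Dbp and Arntl hold 0 matches, which says only that these letters are not in them. Nr1d2 and Clock, not shown, also hold 0. Their brightest probes were likewise higher (Nr1d2) or lower (Clock) on chip 2 in every pool. Of 16 clock genes with a promoter in the table, 5 hold a match in at least 1 entry (Bhlhe41, Ciart, Cry1, Per1 and Tef), against 6.86% of all genes, and by entry the clock genes hold one in 6 of 21.

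No fasting-responsive or immediate-early gene passed the test of chip after adjustment. Of the 27 tested fasting-responsive genes, 9 were lower on chip 2 in all 3 pools (16.5% of probes) and 3 higher (13.9%), and 11 had an unadjusted p under 0.05 (7.99%). The 9 were Pdk4, Fbxo32, Trim63, Foxo1, Ucp3, Angptl4, Cdkn1a, Fkbp5 and Txnip. As the list was chosen with earlier results known, these counts are not an independent test. The forkhead factor Foxo1, a known activator of Pdk4 and the ubiquitin ligases, gave 849.6, 782 and 664 on chip 1 and 479, 615 and 285 on chip 2, with no overlap between the chips and a difference of -0.72 ± 0.14 (limma adjusted p = 0.34). The mitochondrial carrier Ucp3 gave 1129.8, 880.1 and 872 on chip 1 and 737, 626 and 468 on chip 2, with a difference of -0.62 ± 0.11 (limma adjusted p = 0.31). Sgk1, a kinase induced by glucocorticoids, went the other way, with 6740.5, 6409.7 and 3962 on chip 1 and 7995, 12795 and 7917 on chip 2 (limma adjusted p = 0.37).

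Of 18 tested immediate-early genes, which respond to stimuli within minutes, 9 were higher on chip 2 in all pools (13.9% of probes), 2 lower (16.5%), and 8 had an unadjusted p under 0.05 (7.99%). Klf2, a factor induced by blood flow, gave 411, 1059 and 338 on chip 1 and 1131, 1485 and 954 on chip 2, with a difference of 1.04 ± 0.17 (limma adjusted p = 0.29). The phosphatase Dusp1 gave 2755, 2451 and 2183 on chip 1 and 4128, 5046 and 2970.4 on chip 2 (limma adjusted p = 0.34). The transcription factor Egr1 gave 1437 and 1085 in WT1, 439 and 483 in WT2, and 577 and 742 in WT3 on chips 1 and 2, and was highest on both WT1 arrays (limma adjusted p of pool = 0.44). Fos gave 462 and 379 in WT1, 186 and 190.0 in WT2, and 258 and 175 in WT3, with the same highest pool.

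The chip 2 array of WT1 carried a set of genes that the other arrays did not show at that level. On it 146 of the 19937 tested probes (0.732%) exceeded every other array by more than 2-fold, against 0 to 5 probes on each other array, and they named 114 genes. Macrophage and leukocyte markers were prominent: 11 of the 12 tested were highest on this array (17.9% of probes), and 7 by more than 2-fold. Lyz2, the lysozyme of macrophages and neutrophils, gave 2998 on it and 205 to 462 on the other 5. Adgre1 (F4/80), a macrophage surface receptor, gave 667 on it and 22.1 to 105 on the other 5, and the complement gene C1qb 1307 on it and 115 to 224 on the other 5. Ptprc, Itgam and Cd3e were not detected on any array and give no value for this comparison. The marker list was chosen with earlier results known, so its counts are not an independent test.

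Other genes of the set were named after their values were seen. The protease inhibitor Timp1 gave 2232 on it and 22.5 to 77.7 on the other 5, the largest ratio among these probes, and Mpeg1, a pore-forming protein of macrophages, gave 1476 on it and 55.6 to 73.6 on the other 5. Galectin 3 (Lgals3) gave 7046 on it and 589 to 932 on the other 5, and the metallothionein Mt3 1404 on it and 39.8 to 86.8 on the other 5. Muscle genes were among them too: Ankrd1, an ankyrin repeat protein induced by stretch and injury, gave 1502 on it and 247 to 432 on the other 5, and Mustn1, known from regenerating muscle and bone, 18002 on it and 3719 to 6892 on the other 5. The set also held 7 histone genes, of which H2ac24 gave 3902 on it and 642 to 799 on the other 5.

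No fibroblast or matrix gene passed the test of chip after adjustment. Of the 12 tested, 8 were higher on chip 2 in all 3 pools (13.9% of probes), 6 of them above all chip 1 arrays (6.36%), and 8 were highest on the chip 2 array of WT1 (17.9%). In WT2 and WT3 alone, 9 of the 12 were higher on chip 2 in both pools (27.2% of probes). This list, too, was chosen with earlier results known, so its counts are not an independent test. Col3a1 gave 189.8, 167 and 277 on chip 1 and 1263, 409 and 376 on chip 2, a difference of 1.24 ± 0.30 (limma adjusted p = 0.51). Col1a1 gave 561 and 2535 in WT1, 1091 and 1476 in WT2, and 1739.5 and 1694 in WT3 on chips 1 and 2, where WT1 had both the lowest and the highest array. What set this array apart was not tested.

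**Figure D5:**
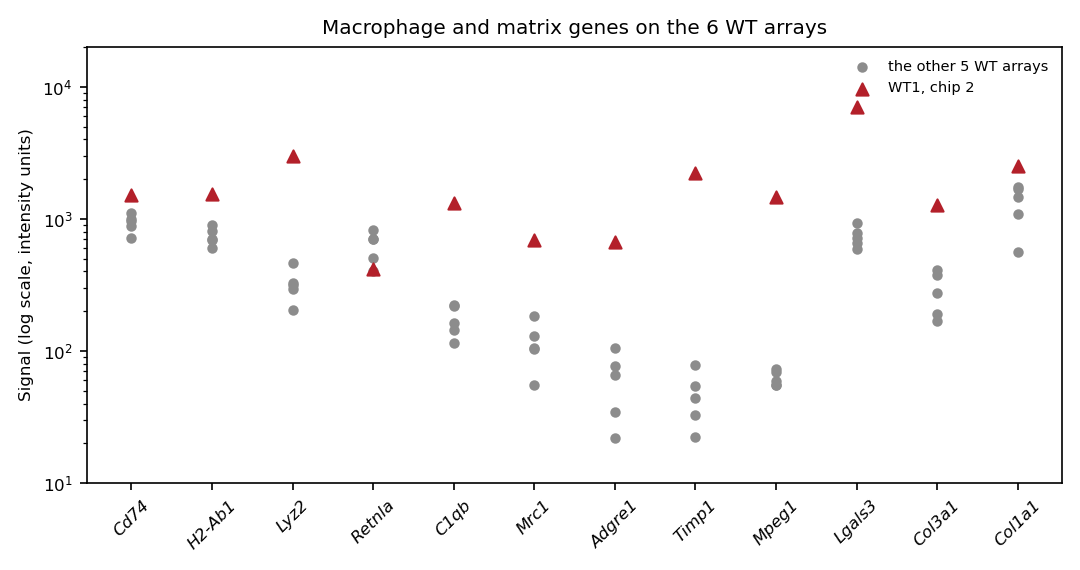
Signal (vertical, log scale, intensity units) of 12 macrophage, matrix and injury genes, with the chip 2 array of WT1 as a red triangle and the other 5 WT arrays as grey points. The triangle is highest for 11 of the 12 genes, and Retnla is the exception. Some of these genes were chosen after their values were seen, so the count is not a test. Of all tested probes, 17.9% were highest on this array.

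Pool values with and without that array differed for these genes. Lyz2 was at 768 ± 762 with it and at 317 ± 19.3 without it, and Mt1 at 19105 ± 10444 with it and at 17114 ± 7220.0 without it, where WT1 remained the highest pool for Mt1. The brightest 30 genes were the same 30 genes with WT1 taken from chip 1 alone.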

How the data were processed

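Probe signals, per the labels, came from Illumina single-colour arrays labelled with Cy3. The deposited intensity signals are linear, and non-normalized per the file headers. Background subtraction and scaling had nevertheless been applied before deposit: 30.3% to 32.7% of an array's values lay below 0, and each array had a mean of 472. What the file headers call a detection p-value increased with signal (Spearman 0.975 or more per array), and 1 minus this score was taken as p. The log2 values of the authors' deposited table served as an alternative. The scanner software is not given in the sources used here.

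Levels are deposited signals, and the array number limits the precision. Gene names come from the platform annotation and may be outdated; 10378 of 45281 probes were without a gene here and 18 with several genes were not named. A gene was represented by its brightest detected probe. For the tests, signals went through normexp with an offset of 50, which compresses dim differences on subtracted values, quantile normalisation over 6 arrays and log2. Probes with a detection p under 0.05 on at least 2 arrays were kept (19937). limma 3.58.1 in R 4.3.3 (lmFit, eBayes, two-sided) tested pool with chip as a term and chip with pool as a term, with Benjamini-Hochberg adjustment and a threshold of 0.05. The fit was tested on simulated data. Summaries used Python 3.11.15, pandas 2.3.3 and numpy 2.4.6, and figures matplotlib 3.10.9.

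Genes were named by a rule: the 30 brightest, the members of the isoform families, up to 5 of the brightest per list, up to 5 called between chips, up to 15 called between pools, and the 5 steadiest and 5 most variable of the brightest 200 by SD in percent of the mean. Other genes were chosen after their values were seen. The members and lists were chosen with earlier results of these data known. Counts of a list set against all probes are therefore descriptions and not independent tests. Promoters are RefSeq sequences of GRCm38.p6. Alternatives covered background, scaling, filters, chips and pools left out.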

Additional observations from a re-analysis of the deposited data

Results flagged for a closer look

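Of 27 measures checked over the 6 arrays, 4 had 1 array far from the others, where chance gives about 1 in 20 such groups. The measures share arrays and are not independent. The chip 1 array of WT1 had the lowest top signal, 40194, against 49315 to 52136. The other 3 concerned the chip 2 array of WT1. Its median root mean square difference to the other arrays was 0.321, against 0.221 to 0.235. The mean log2 level of macrophage and leukocyte markers on it was 9.72, against 7.80 to 8.46. That of ribosomal proteins was 13.10, against 12.97 to 12.99. The cause was not tested.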

How the results depend on the processing

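The test of pool called 0 probes (963 at an unadjusted p under 0.05) and called 0 in 10 of 13 alternatives. It called 4 with WT1 from chip 1 only and 2 with no filter, and 0 to 2 with 1 pool left out (2 without WT1). With no replicate block, that is without the chip term, it called 0 (706 unadjusted). The test of chip called 4 probes, and 0 on signals floored at 10 (1487 unadjusted) or in the authors' table (1369), 2 among probes detected on all arrays, and 0 with no replicate block, that is without the pool term (1551). It called 4 with scaling to the 75th percentile and 0 to 24 with 1 pool left out: 3 without WT1, 0 without WT2 and 24 without WT3. On the TG arrays, an alternative added after the data were seen, it called 0. The mean chip differences of the 4 genes kept their direction in all of these, but on the TG arrays they were smaller (0.41 against 1.80 for Slc25a25) and Dbp, Bhlhe40 and Slc25a25 each had 1 pool the other way. Pool numbers come from the titles, and chip numbers were read from the repeat numbers in the titles, which do not name a chip.

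Of the brightest 30 genes, 22 to 30 were shared under the alternatives, 22 with the mean over a gene's probes. The median ratio between probes of a gene was 3.31 to 3.63. On signals floored at 10 the median SD was 0.167 over pools and 0.257 between arrays of a pool, against 0.0888 and 0.135. No result was reversed. With 3 pools of 2 mice on 6 arrays, and without fed mice, levels carry no comparison of conditions, and dim probes are limited by background.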
